A study of Mus musculus with 14 samples.

Results

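The comparison described here asks what a TFEB transgene changes in unstimulated macrophages: transgenic against wild-type cells, both kept in plain medium. The cells were bone marrow-derived macrophages, grown from marrow of 8-week-old female C57BL/6 mice for 1 week in M-CSF, replated, and held for 24 h in DMEM only. Both genotypes carried LysM-Double-Cre, labelled LysM-Double-Cre x TFEB transgene+ (transgenic) or LysM-Double-Cre x TFEB transgene- (wild-type). The arrays were chosen by their titles, and 7 of the series' 14 one-colour arrays belong here: 4 arrays of 3 wild-type replicates and 3 arrays of 3 transgenic replicates. Wild-type replicate 3 was measured on 2 arrays that count as 1 replicate. The fit linked them by an estimated correlation of 0.061, so they weighed nearly as 2 samples. The other arrays held cells of both genotypes given EO771 tumour-conditioned medium and tumour lysate. They enter the fit for its estimates of the spread and of the slide term, and through the slide term they also affect the differences given here.

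TFEB is a basic helix-loop-helix factor of the MiT/TFE family. When nutrients are plentiful the kinase mTORC1 on the lysosome keeps it phosphorylated in the cytoplasm. On starvation or lysosomal stress it moves to the nucleus and binds E-boxes of genes for lysosomal hydrolases, the proton pump and autophagy. In macrophages it is also known as a regulator of inflammatory and lipid genes. The lysozyme M promoter acts in macrophages and in neutrophils, so Cre made under it is not limited to macrophages. The labels do not say how the transgene is built, or whether the replicates of a group came from separate animals, so p-values measure the spread between these samples.

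A value given for a gene is its level, the log2 of its signal over the array's 75th percentile of signal, listed in the order of replicates 1, 2 and 3. A difference is transgenic minus wild-type on that log2 scale, with its SE. Adjusted p-values are from limma with the slide as a term, adjusted by Benjamini-Hochberg over all 15833 genes tested, and a gene is called rising or falling at an adjusted p under 0.05. Levels of different genes are not compared, since probes differ in brightness. A gene not well above background on any array of a group has only a bound there. Its fold is then given as "at least", the mean of the bright group set against a limit. On each dim array that limit is the lowest signal among detected probes, or the signal of the probe in question if that is larger.

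Macrophage markers were bright in every replicate of both groups. Adgre1, which encodes a macrophage surface receptor, measured 7.61, 7.66 and 7.92 in the wild-type and 7.65, 7.49 and 7.67 in the transgenic replicates. Transgenic replicate 1 stood apart from the rest. Its correlation with transgenic replicates 2 and 3 over all genes was 0.957 to 0.959, against 0.981 between those and 0.983 to 0.992 among wild-type arrays. In 475 genes it lay at least 2 log2 units from the mean of replicates 2 and 3, 231 of them above and 244 below, and the same count was 132 for replicate 2 and 129 for replicate 3. Its summed signal of 29 neutrophil and granule genes was 1212 times the array's 75th percentile, against 409 and 386 in the other transgenic replicates and 540 to 607 in wild-type. Results are therefore given with and without transgenic replicate 1. Transgenic replicates 1 and 2 also share a column of the slide with a stronger spatial trend (detrending RMS 0.253 to 0.331 there and 0.0964 to 0.126 elsewhere). That column held transgenic arrays only, so it is partly confounded with genotype. The 75th percentile used for scaling was 124 to 142 on transgenic and 89.2 to 116 on wild-type control arrays. The dimmest detected signal after scaling was -3.59 to -3.39 against -2.86 to -2.62, while the 5% level of detected signals overlapped. Slide 2 held 1 array of each control group. The part of these features in the results was not tested, beyond the alternatives in the closing section.

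Of 15833 genes, 1416 were called between genotypes (8.94% of those tested), 573 higher in transgenic cells (3.62%) and 843 lower (5.32%). Differences reached 2-fold in 254 of the rising and 384 of the falling genes. Without transgenic replicate 1 the counts were 1180 higher (7.45%) and 1538 lower (9.71%). Counts for a gene list are to be read beside these shares, 3.62% and 5.32% with replicate 1 and 7.45% and 9.71% without it. Of the 1416 calls, 1280 held without it, 513 higher and 767 lower, 136 were lost and 0 turned to the opposite direction. A further 1438 genes were called only without replicate 1, and 51 of these had a difference of the opposite sign with it. All 1416 called genes had the same sign within slide 1, and 1412 had it within slide 2. The same arrays gave the calls, and slide 2 held 1 array of each control group. Such agreement was therefore nearly fixed in advance and is no separate check. Levels of the 3 transgenic and the 3 wild-type replicates did not overlap for 3395 genes (21.4%), of which 1288 were called. Without wild-type control replicate 3, whose repeat array is the single wild-type control array on slide 2, 143 rose and 277 fell. With normexp background correction 993 rose and 835 fell, so that 54.3% of calls were higher against 40.5% in the counts above. The fit estimated a correlation of 0.061 between repeat arrays of a replicate, and the calls depended on it. Averaging those arrays, with no slide term, gave 286 rising and 479 falling genes, and a correlation set at 0.9 gave 65 and 110. Fits with a replicate left out estimated the correlation anew. It was -0.22 without transgenic control replicate 1, -0.27 without wild-type control replicate 3 and 0.76 without transgenic tumour replicate 3. Calls lost or gained in such fits can mix the removal with this shift. The same limit holds for other alternatives. The estimate was 0.59 with a term for slide column 4, 0.63 without the arrays of that column and -0.28 with normexp background correction. Averaged arrays without transgenic control replicate 1 gave 782 rising and 1176 falling genes. Of the 109 genes named here that were called, 88 kept the call with averaged arrays and 47 at a correlation of 0.9. Mitosis genes called higher numbered 48, 46 and 17 under the estimated correlation, the averaged arrays and the correlation of 0.9, DNA replication genes 28, 20 and 4, and lysosomal genes called lower 10, 3 and 2. Il1b, Socs3, Ccna2, Mki67, Hgsnat, Ctsc and Mpo were among those called in all 3 fits, and Mitf, Il4ra, Cx3cr1, Cd74, C1qa, Hmox1 and Phgdh among those not called at 0.9. In bulk RNA, fewer cells of a type and less RNA per cell cannot be told apart.

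**Figure D1:**
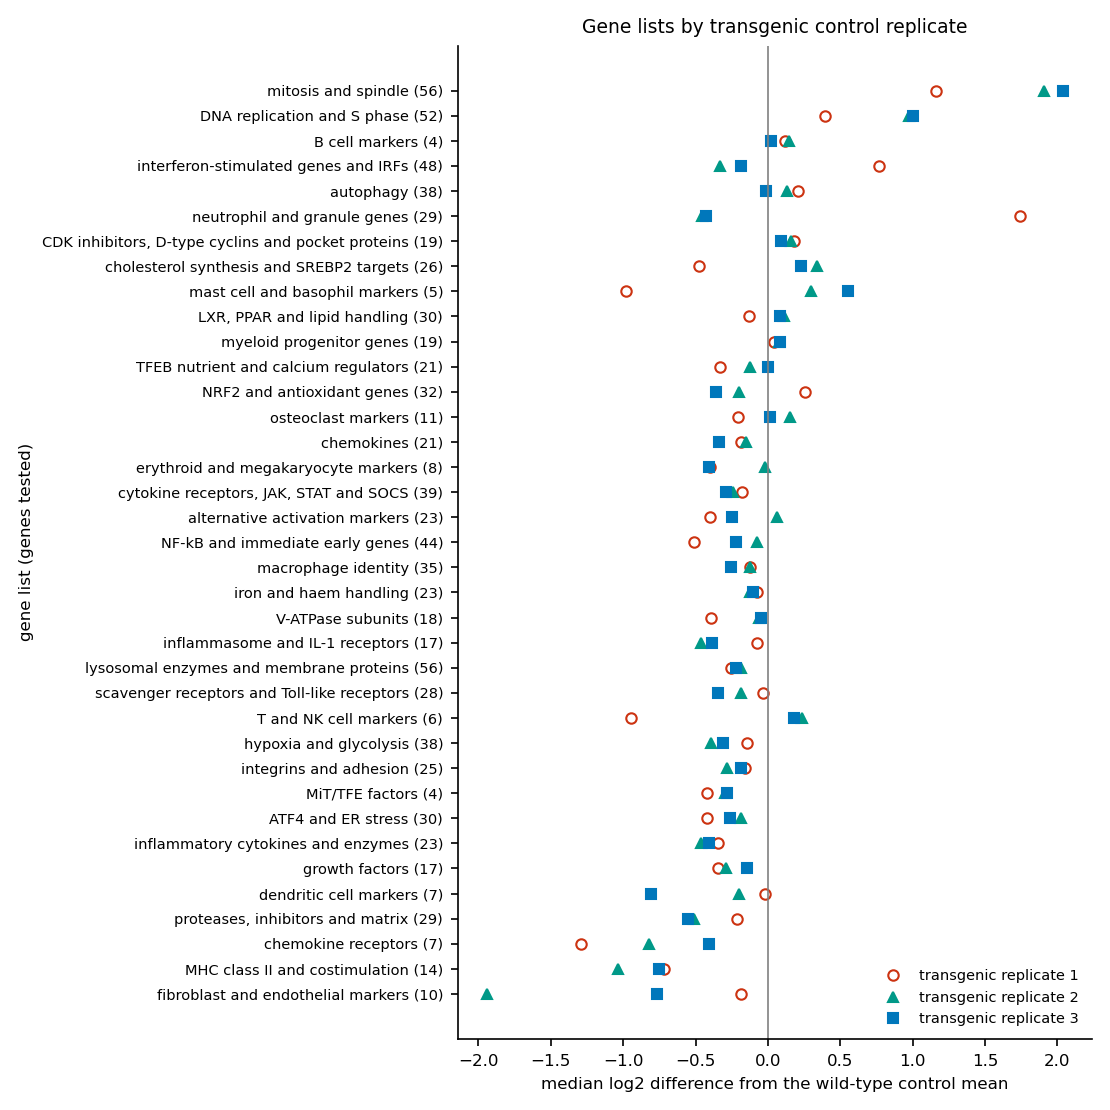
Median log2 difference from the wild-type control mean, on the x axis, for each of 37 gene lists and each transgenic control replicate; the number after a list's name is how many of its genes were tested. Mitosis genes sit to the right in all 3 replicates (medians 1.16, 1.91 and 2.04), while neutrophil and granule genes are at 1.74 in replicate 1 and at -0.46 and -0.43 in replicates 2 and 3.

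The promoters of 6 genes are shown here because mitosis genes were the list with most rising members, and lysosomal genes are the textbook targets of TFEB. They were chosen after values and motif matches were seen. Each is the 200 bases before the gene's start, read 5′ to 3′ on the gene's strand, from RefSeq (GRCm38.p6). Capitals mark every match, on either strand, to the 4 motifs that follow. The cell cycle homology region core (TTTGAA or TTCGAA) and the CCAAT box (CCAAT) are elements known from late cell cycle promoters, and CCAAT boxes occur in many other promoters. E2F sites (TTTCGCGC, TTTGGCGC or TTTCCCGC) are known from S phase promoters, and the CLEAR core (TCACGTGA) is the E-box form known from lysosomal genes. A match is a description of the letters and not a binding site.
Ube2c, chr2:164769729-164769928, plus strand, 1 core and 5 CCAAT boxes, 2 of them overlapping: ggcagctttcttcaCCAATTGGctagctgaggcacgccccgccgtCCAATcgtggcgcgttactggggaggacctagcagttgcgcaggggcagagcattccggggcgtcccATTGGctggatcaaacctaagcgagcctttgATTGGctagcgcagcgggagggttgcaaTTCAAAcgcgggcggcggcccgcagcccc
Ccnb2, chr9:70421555-70421754, minus strand, 1 core and 3 CCAAT boxes: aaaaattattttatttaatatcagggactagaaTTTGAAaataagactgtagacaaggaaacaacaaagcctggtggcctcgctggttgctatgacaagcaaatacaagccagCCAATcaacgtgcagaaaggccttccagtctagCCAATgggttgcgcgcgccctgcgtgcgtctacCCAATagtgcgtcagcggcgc
Mki67, chr7:135716380-135716579, minus strand, 2 cores and 3 CCAAT boxes: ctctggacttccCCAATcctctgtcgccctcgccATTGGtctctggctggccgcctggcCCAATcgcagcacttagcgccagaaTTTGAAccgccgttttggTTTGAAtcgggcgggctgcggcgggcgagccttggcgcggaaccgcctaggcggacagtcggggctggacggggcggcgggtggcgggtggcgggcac
Dtl, chr1:191575545-191575744, minus strand, 1 E2F site and 1 CCAAT box: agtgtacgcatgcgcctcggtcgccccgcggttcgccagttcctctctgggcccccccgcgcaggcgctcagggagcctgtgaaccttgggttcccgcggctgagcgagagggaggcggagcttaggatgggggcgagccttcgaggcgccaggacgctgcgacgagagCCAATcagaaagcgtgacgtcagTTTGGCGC
Mcm5, chr8:75109309-75109508, plus strand, 2 overlapping E2F sites and 2 CCAAT boxes: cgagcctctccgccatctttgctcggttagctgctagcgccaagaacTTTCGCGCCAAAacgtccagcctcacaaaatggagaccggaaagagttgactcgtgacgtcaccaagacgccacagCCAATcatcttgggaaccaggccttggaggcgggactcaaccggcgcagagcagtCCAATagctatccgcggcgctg
Mcoln1, chr8:3500319-3500518, plus strand, 1 CLEAR core and 1 cell cycle core: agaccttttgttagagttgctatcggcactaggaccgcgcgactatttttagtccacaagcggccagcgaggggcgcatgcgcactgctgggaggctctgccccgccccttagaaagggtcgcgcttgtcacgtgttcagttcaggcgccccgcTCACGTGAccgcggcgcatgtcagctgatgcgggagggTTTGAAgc

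Motifs were counted on both strands from 250 bases before to 50 after the start, in the first listed promoter of the 8847 tested genes that matched a RefSeq promoter by symbol. The cell cycle homology region core was in 30 of 43 promoters of mitosis genes (69.8%), in 10 of 42 of DNA replication genes (23.8%) and in 14.1% of all 8847. The CCAAT box was in 27 of the 43 (62.8%) and 26 of the 42 (61.9%), against 38.7% of all. Core and CCAAT box together were in 24 of the 43 (55.8%), in 8 of the 42 and in 5.93% of all. E2F sites were in 15 of 42 DNA replication genes (35.7%), in 1 of 43 mitosis genes and in 3.54% of all. Among genes called higher, whatever their list, 93 of 383 held the core (24.3%), and 84 of the 343 called with and without transgenic replicate 1 did (24.5%). Outside both cell division lists 64 of 326 rising genes held it (19.6%). Among genes called lower the share was 57 of 434 (13.1%). The E-box CACGTG, which lies within the CLEAR core, was in 10 of 44 lysosomal genes (22.7%) and in 10.5% of all. It was in 8.09% of the rising and 11.5% of the falling genes, and the CLEAR core was in 1.04% and 2.07%, against 2.06% of all. Among lysosomal genes the CLEAR core was in 2 of 44 (4.55%), and among mitosis genes in 2 of 43 (4.65%).

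The Tfeb probe itself showed no called difference. Tfeb measured 0.99, 0.82 and 0.89 in wild-type and 1.35, 1.36 and 0.86 in transgenic cells. Transgenic replicates 1 and 2 lay above every wild-type replicate and replicate 3 lay within their range, with a difference of 0.31 ± 0.13, adjusted p = 0.167, and of 0.24, adjusted p = 0.262 without replicate 1. Which part of the transcript this probe reads, and whether it reads the transgene's RNA, the files and labels do not state. The label is therefore not checked by this probe. The relatives Mitf and Tfec fell: Mitf from 5.74, 5.87 and 5.74 to 5.35, 5.30 and 5.26 (-0.46 ± 0.09, adjusted p = 0.00744; without replicate 1 -0.47, adjusted p = 0.00466), and Tfec from 2.15, 1.90 and 2.30 to 1.71, 1.48 and 1.46 (-0.61 ± 0.14, adjusted p = 0.0217; without replicate 1 -0.73, adjusted p = 0.00626). Their replicates did not overlap, but the Mitf call was lost on leaving out wild-type control replicate 3 (adjusted p = 0.0662) and the Tfec call lost on leaving out any one of wild-type control replicates 1 and 3 and transgenic control replicate 3 (adjusted p up to 0.19). Tfe3 gave -0.20 ± 0.31, adjusted p = 0.734, with 0.05, adjusted p = 0.941 without replicate 1, and its groups overlapped.

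Lysosomal genes did not rise. Of 56 genes for lysosomal enzymes and membrane proteins, 0 were called higher and 10 lower (17.9%, against 5.32% over all genes). Their median was -0.19, against -0.03 over all genes tested. Without transgenic replicate 1, 11 were lower and 0 higher, 9 of them the same genes, with a median of -0.15. Hgsnat, which acetylates heparan sulphate for its breakdown, measured 5.91, 5.68 and 5.73 in wild-type and 4.49, 3.62 and 3.60 in transgenic replicates. All transgenic values lay below all wild-type ones, replicate 1 nearest to them, and the difference was -1.85 ± 0.18, adjusted p = 0.000159, or -2.14, adjusted p = 1.28e-06 without replicate 1. Ctsc (cathepsin C, which activates granule serine proteases) measured 5.19, 4.99 and 5.01 against 3.91, 2.84 and 3.27, without overlap. It fell by 1.70 (SE 0.20, adjusted p = 0.000363), and by 1.99 without replicate 1 (adjusted p = 6.25e-06). Both calls held when any single replicate of the series was left out. Ppt1, a thioesterase, fell by 0.81 (adjusted p = 0.00731), and by 0.59 without replicate 1 (adjusted p = 0.00305), and its call was lost on leaving out wild-type control replicate 3 (adjusted p = 0.0776). Cln3 is the lysosomal gene whose call rested on replicate 1: it measured 6.90, 6.98 and 6.95 against 5.86, 5.99 and 6.63, with an adjusted p of 0.0457, and of 0.0728 without that replicate. Its 3 probes ranged from -0.81 to -0.12. Leaving out other single replicates gave 3 (wild-type control replicate 3) to 10 falling lysosomal genes. The count also depended on the scaling: it was 6 with quantile normalization and 4, beside 1 rising, with normexp background correction.

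Of widely used TFEB target and lysosome markers, Ctsd, Lamp1, Ctsb, Gpnmb, Sqstm1 and Flcn were not called with or without transgenic replicate 1. Under quantile normalization without that replicate Lamp1 was called higher (0.35, adjusted p = 0.0446). Mcoln1, described below, was called lower both with and without replicate 1. Ctsd (cathepsin D) measured 8.93, 9.11 and 8.84 in wild-type and 8.63, 8.82 and 8.74 in transgenic replicates (-0.20 ± 0.11, adjusted p = 0.285), lower in all 3 without overlap but within the error of the fit, and its other probe gave 0.14. Lamp1, the main lysosomal membrane glycoprotein, measured 7.83, 7.87 and 7.62 and 7.34, 8.19 and 7.60, with overlap. Ctsb (-0.18 ± 0.15, adjusted p = 0.488), Gpnmb (-0.01 ± 0.11, adjusted p = 0.962), the autophagy receptor Sqstm1 (0.09 ± 0.18, adjusted p = 0.803) and Flcn (-0.07 ± 0.12, adjusted p = 0.752), which controls TFEB through the Rag GTPases, also overlapped between groups. A second Flcn probe gave -0.44. Of 21 nutrient and calcium regulators of TFEB, 1 fell (4.76%, against 5.32% over all genes) and 0 rose, and 1 fell and 2 rose without replicate 1. Mcoln1, the lysosomal calcium channel whose promoter is printed above, measured 6.62, 6.61 and 6.62 against 5.85, 5.96 and 6.15. The groups did not overlap (-0.62 ± 0.15, adjusted p = 0.0228; without replicate 1 -0.54, adjusted p = 0.0324), yet the call was lost on leaving out any one of wild-type control replicates 1 and 3 (adjusted p up to 0.134), and with normexp background correction the difference was 0.04. Of 18 proton pump (V-ATPase) subunits 1 fell (5.56%, against 5.32% over all genes) and 0 rose. Of 38 autophagy genes 1 rose (2.63%, against 3.62% over all genes). It was Atg14, a subunit of the lipid kinase complex that starts autophagosomes (0.66 ± 0.13, adjusted p = 0.0104; without replicate 1 0.70, adjusted p = 0.00684). The Atg14 call was lost on leaving out any one of wild-type control replicate 3 and transgenic tumour replicate 3 (adjusted p up to 0.128). Without replicate 1, 2 V-ATPase and 5 autophagy genes were called higher. Rragd was not tested, being too dim in every group.

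**Figure D2:**
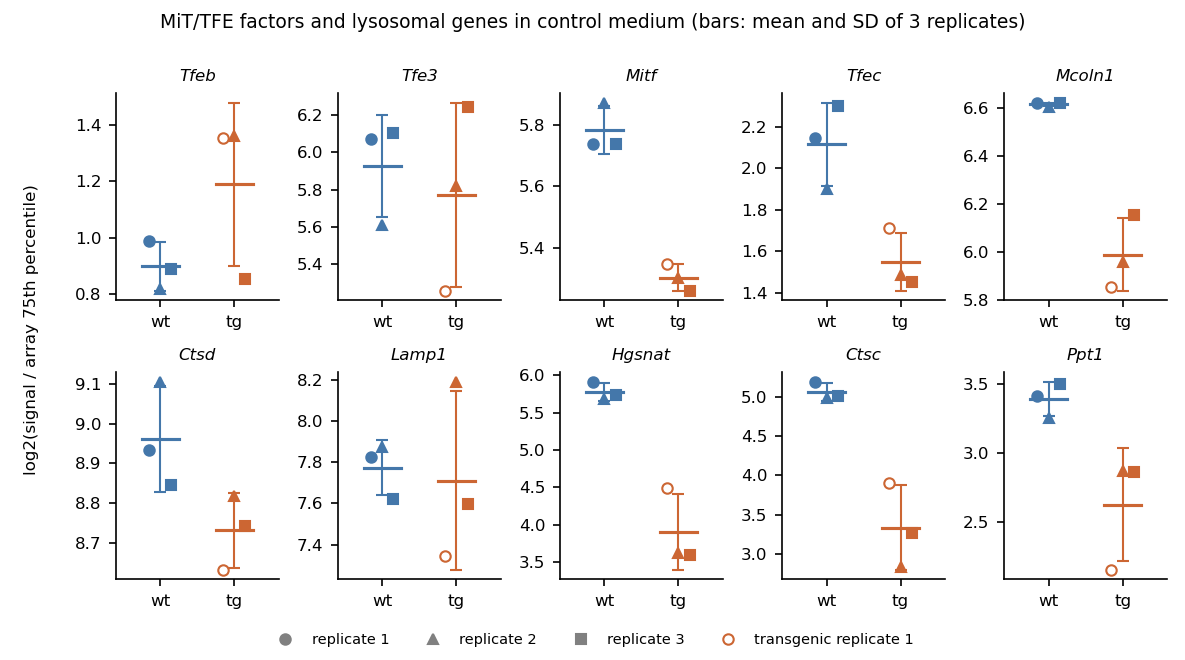
Levels on the y axis, log2 signal over the array's 75th percentile, for 10 MiT/TFE and lysosomal genes in wild-type (wt) and transgenic (tg) control replicates; each symbol is 1 replicate and bars show the mean and SD of 3. Hgsnat, Ctsc and Ppt1 are lower in every transgenic replicate, while Tfeb, Tfe3 and Lamp1 overlap.

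Genes of cell division rose together. On the array were 85 genes of mitosis and the spindle, and 56 passed the filter. It keeps a gene detected on all arrays of any 1 group. Members dim in wild-type cells could thus enter only through a group where they were high. Of these 56, 48 were called higher and 0 lower, against 3.62% of all genes called higher, with a median of 1.67. Without transgenic replicate 1, 52 were higher, 47 of them the same genes, and the median was 1.93. Replicate 1 showed the same direction at a smaller size: its median over the list was 1.16, against 1.91 and 2.04 in replicates 2 and 3. With slide column 4 as a term 37 of the 56 rose, and without wild-type control replicate 3 25 rose. The count was 48 under quantile normalization and under normexp correction as well. Ccna2 (cyclin A2, of S phase and mitosis) measured -0.53, 0.08 and -0.29 in wild-type and 1.86, 3.53 and 3.15 in transgenic replicates. Every transgenic value was above every wild-type value, the difference being 3.08 ± 0.35, adjusted p = 0.000363, and 3.58, adjusted p = 1.77e-05 without replicate 1. Mki67, the proliferation marker, measured 1.53, 1.25 and 1.43 against 2.90, 3.28 and 3.24, again without overlap (1.73 ± 0.16, adjusted p = 8.35e-05; without replicate 1 1.85, adjusted p = 2.64e-05). Nusap1, a spindle microtubule protein, rose from -2.58, -2.36 and -2.55 to -0.51, 1.38 and 0.94 (3.09 ± 0.38, adjusted p = 0.000498; without replicate 1 3.69, adjusted p = 6.48e-06), with 1 of 4 wild-type arrays above background. The 3 calls held when any single replicate was left out.

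Other members had no wild-type array above background, so their rise is a bound. Aunip, which binds Aurora A at the centrosome, measured -4.52, -3.92 and -4.17 against -1.42, 0.94 and 0.82 and was at least 7.57-fold higher (adjusted p = 0.000269), and at least 12.9-fold without transgenic replicate 1 (adjusted p = 1.01e-06). Pbk, a mitotic kinase, measured -3.73, -2.81 and -4.15 against -0.58, 1.06 and 0.92. It was at least 9.54-fold higher (adjusted p = 0.000294), and at least 13.7-fold without replicate 1 (adjusted p = 5.7e-05). Ska1, which couples kinetochores to microtubules, was at least 3.45-fold higher (adjusted p = 5.94e-06; at least 2.95-fold without replicate 1, adjusted p = 2.01e-06). It is an exception in that its highest transgenic value, -0.56, was that of replicate 1. Among genes outside the lists, Ccnf (cyclin F, a ubiquitin ligase subunit) was at least 4.97-fold higher (adjusted p = 0.000663) and Fanci, of DNA crosslink repair, at least 4.31-fold (adjusted p = 0.000555), and both held without replicate 1 (adjusted p = 0.000259 and 4.7e-05). Sapcd2, a spindle orientation gene, and Pimreg rose by at least 6.96-fold and 7.89-fold, and held without replicate 1 (adjusted p = 0.00194 and 0.000382), but not on leaving out wild-type control replicate 3 (adjusted p = 0.0992 and 0.0992).

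DNA replication and S phase genes followed with smaller differences. The array held 61 of them, and 52 passed the same filter. Of 52 tested, 28 were called higher and 1 lower (the uracil glycosylase gene Ung, -0.83 ± 0.10, adjusted p = 0.000368, and -0.86, adjusted p = 0.000237 without replicate 1, named after its value was seen), with a median of 0.74. Without replicate 1, 34 were higher and 1 lower, with a median of 0.97. Without wild-type control replicate 3, 10 were higher. Rrm2, which makes deoxynucleotides, measured 0.89, 1.47 and 1.10 against 3.0, 4.48 and 4.31, without overlap (2.78 ± 0.30, adjusted p = 0.000261; without replicate 1 3.28, adjusted p = 1.14e-06). Rad51ap1, a recombination factor, measured -1.33, -2.10 and -2.43 against 0.00, 1.11 and 1.20 (2.86 ± 0.39, adjusted p = 0.000937; without replicate 1 3.39, adjusted p = 9.02e-05). Both calls held when any single replicate was left out. Uhrf1, which maintains DNA methylation, measured -0.08, 0.38 and -0.15 against 1.17, 3.33 and 3.23, with replicate 1 nearest to wild-type (2.56 ± 0.43, adjusted p = 0.0037; without replicate 1 3.35, adjusted p = 2.56e-06), and its call was lost on leaving out wild-type control replicate 3 (adjusted p = 0.0682). Tk1, of thymidine salvage, showed the same order of replicates, at -0.57, 1.65 and 1.91 against -1.58, -0.96 and -2.43 in wild-type. Its difference was 2.87 ± 0.67, adjusted p = 0.0207, or 3.92, adjusted p = 0.000581 without replicate 1, and the call was lost on leaving out any one of wild-type control replicate 3, transgenic control replicates 2 and 3 and transgenic tumour replicate 3 (adjusted p up to 0.193).

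**Figure D3:**
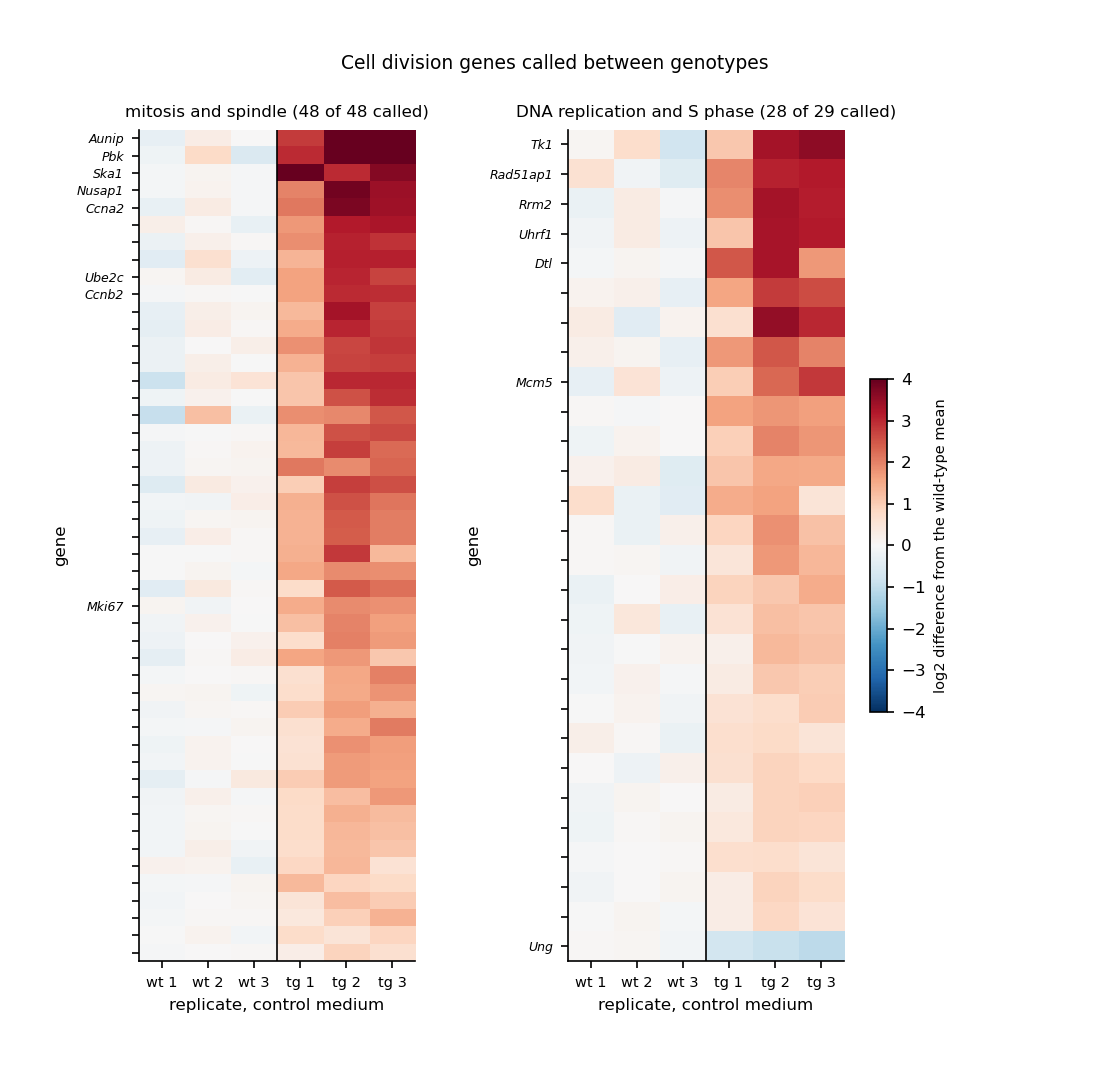
Log2 difference of each control replicate from the wild-type mean (colour scale from -4 to 4) for the 48 mitosis genes and 28 of the 29 DNA replication genes called between genotypes, 1 row per gene, with the genes described in the text named. All genes shown but Ung are higher in the transgenic replicates, and replicate 1 (tg 1) is paler than replicates 2 and 3 in most rows.

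Among 19 genes for CDK inhibitors, D-type cyclins and pocket proteins, 4 rose and 0 fell, and 8 rose and 2 fell without transgenic replicate 1. Cdkn2c (p18, an inhibitor of CDK4 and CDK6) measured 0.77, 0.79 and 0.62 against 2.04, 2.37 and 1.80, without overlap (1.38 ± 0.14, adjusted p = 0.000226; without replicate 1 1.44, adjusted p = 0.000116). Ccnd1 (cyclin D1) was high in replicates 2 and 3 only, at 4.36, 7.45 and 7.11 against 3.61, 4.56 and 3.81 in wild-type. Its difference was 2.33 ± 0.57, adjusted p = 0.0271 with replicate 1 and 3.39, adjusted p = 5.72e-06 without it, and the groups overlapped only through replicate 1. The Ccnd1 call was lost on leaving out any one of wild-type control replicates 1 and 3, wild-type tumour replicate 3, transgenic control replicates 2 and 3 and transgenic tumour replicate 3 (adjusted p up to 0.199). The inhibitors Cdkn1a (p21) and Cdkn1c (p57) were called only without replicate 1: Cdkn1a gave -0.39 ± 0.25, adjusted p = 0.364, then -0.84, adjusted p = 0.000163, and Cdkn1c gave 0.93 ± 0.58, adjusted p = 0.345, then 1.91, adjusted p = 0.00684.

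The largest falls included genes of interleukin-1 and cytokine feedback signalling. Socs3, which blocks JAK kinases at cytokine receptors, measured 3.77, 2.29 and 3.49 in wild-type and -1.09, -1.73 and -1.55 in transgenic replicates. Every transgenic replicate lay at least 3 units below every wild-type one, and the difference was -4.72 ± 0.37, adjusted p = 2.95e-05, or -4.98, adjusted p = 1.86e-05 without replicate 1. Il1b, the cytokine made as a precursor and cut by the inflammasome, measured 2.30, 1.45 and 2.18 against -1.63, -3.19 and -2.95, with 1 of 3 transgenic arrays above background. It differed by -4.60 ± 0.32, adjusted p = 1.77e-05. Without replicate 1 no transgenic array was above background, and Il1b was at least 33-fold lower (adjusted p = 7.43e-07). Both calls held when any single replicate was left out. Of 17 inflammasome and IL-1 receptor genes 4 fell and 0 rose, against 7 and 0 without replicate 1: the adaptor Pycard (-1.21 ± 0.24, adjusted p = 0.0102; without replicate 1 -1.11, adjusted p = 0.0159), Mefv (pyrin; -0.80 ± 0.15, adjusted p = 0.00604; -0.69, adjusted p = 0.00756), the sensor Nlrp3 and the receptor Il1r1. Nlrp3 was not above background on any transgenic array and was at least 2.1-fold lower (adjusted p = 0.00362; at least 2.45-fold without replicate 1, adjusted p = 1.25e-05). Il1r1 was at least 1.73-fold lower (adjusted p = 0.00894; without replicate 1 0.0143), and was above background on 2 of 4 wild-type arrays. Without wild-type control replicate 3 the calls of Pycard, Mefv, Nlrp3 and Il1r1 were lost (adjusted p up to 0.103, 0.0766, 0.072 and 0.0945), and Il1r1 was lost as well without transgenic tumour replicate 3.

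Of 39 cytokine receptor, JAK, STAT and SOCS genes 10 fell and 0 rose (5.32% and 3.62% over all genes), and 14 fell and 1 rose without replicate 1. Il4ra, the receptor chain for IL-4 and IL-13, measured 3.72, 3.12 and 3.87 against 2.44, 1.72 and 1.92, without overlap (-1.61 ± 0.24, adjusted p = 0.00157; without replicate 1 -1.89, adjusted p = 0.000286); its other probe gave -0.83. Csf2rb, the chain shared by receptors for GM-CSF and IL-3, measured 8.02, 7.77 and 7.94 against 7.21, 6.85 and 6.88 (-0.93 ± 0.12, adjusted p = 0.000757; without replicate 1 -1.04, adjusted p = 0.000147). Both calls held when any single replicate was left out. Il17ra also fell (-1.07 ± 0.21, adjusted p = 0.00915; without replicate 1 -1.25, adjusted p = 0.00253), and its call was lost on leaving out wild-type control replicate 3 (adjusted p = 0.0945). Cish, another SOCS family member, overlapped between groups, with -1.18 ± 0.29, adjusted p = 0.0271 and -1.48, adjusted p = 0.00482 without replicate 1.

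Of 23 inflammatory cytokine and enzyme genes 5 fell and 0 rose, and 7 and 0 without replicate 1. Osm (oncostatin M, of the IL-6 family) measured -1.01, -1.14 and -0.82 against -2.01, -1.84 and -2.34, without overlap (-1.10 ± 0.14, adjusted p = 0.00065; without replicate 1 -1.13, adjusted p = 0.000622). Il15 differed by -1.12 ± 0.20, adjusted p = 0.00562 (-1.07, adjusted p = 0.00765 without replicate 1), on 2 of 4 wild-type and 1 of 3 transgenic arrays above background, and its call was lost on leaving out any one of wild-type control replicate 3 and transgenic tumour replicate 3 (adjusted p up to 0.0739). Il6 and Ptgs2 passed the test but were not well above background on any control array of either group, so no fold is given. Tnf was not called (-0.08 ± 0.18, adjusted p = 0.834; without replicate 1 0.20, adjusted p = 0.257), nor was Il10 (-0.46 ± 0.20, adjusted p = 0.175; -0.34, adjusted p = 0.304). Nos2, which makes nitric oxide, was lower only without replicate 1, from -0.59 ± 0.32, adjusted p = 0.28 to -1.18, adjusted p = 0.00136. Of 21 chemokines 3 fell and 0 rose, and 5 fell and 5 rose without replicate 1. Cxcl14 measured 1.29, 1.70 and 1.45 against 0.17, -0.43 and -0.27 (-1.63 ± 0.17, adjusted p = 0.000227; without replicate 1 -1.78, adjusted p = 5.58e-05). Of 7 chemokine receptors 3 fell and 0 rose, against 2 and 1 without replicate 1. Cxcr3 was called only with replicate 1 (adjusted p = 0.0496, and 0.0852 without it).

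Of 44 NF-kB and immediate early genes 11 fell and 1 rose; without replicate 1, 13 fell and 8 rose, with 9 of the falling genes shared. Fos, a subunit of AP-1, measured 3.73, 3.54 and 3.62 in wild-type and 1.55, 2.44 and 2.61 in transgenic replicates, replicate 1 the lowest (-1.44 ± 0.19, adjusted p = 0.000842; without replicate 1 -1.11, adjusted p = 2.63e-05). Klf4, a macrophage differentiation factor, measured 1.96, 1.73 and 1.82 against 1.03, -0.01 and -0.05, here with replicate 1 the nearest to wild-type (-1.49 ± 0.22, adjusted p = 0.00151; without replicate 1 -1.85, adjusted p = 3.6e-06). Egr1 fell by 1.38 (adjusted p = 0.0031; without replicate 1 by 1.25, adjusted p = 0.00544). Fos, Klf4 and Egr1 kept their calls when any single replicate was left out. Nr4a1 and Ier3 fell as well (-1.32 ± 0.27, adjusted p = 0.012 and -1.90 ± 0.34, adjusted p = 0.00523; without replicate 1 -0.86, adjusted p = 0.00229 and -2.39, adjusted p = 0.000146), but the Ier3 call was lost on leaving out wild-type control replicate 3 (adjusted p = 0.0711) and the Nr4a1 call lost on leaving out any one of wild-type control replicate 3 and transgenic tumour replicate 3 (adjusted p up to 0.0844).

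**Figure D4:**
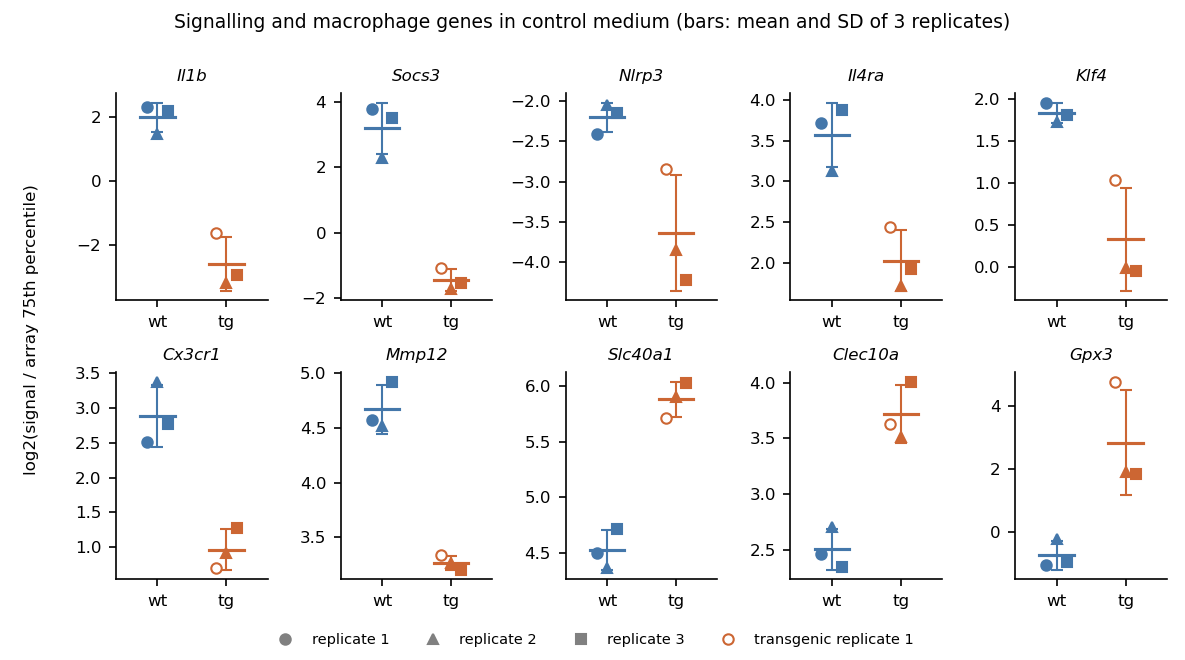
Levels on the y axis, log2 signal over the array's 75th percentile, for 10 signalling and macrophage genes in wild-type (wt) and transgenic (tg) control replicates; each symbol is 1 replicate and bars show the mean and SD of 3. Il1b, Socs3, Il4ra, Klf4, Cx3cr1 and Mmp12 are lower, and Slc40a1, Clec10a and Gpx3 higher, in every transgenic replicate.

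Among the largest rises, Gpx3, a secreted glutathione peroxidase, measured -1.05, -0.20 and -0.94 in wild-type and 4.78, 1.91 and 1.85 in transgenic replicates. All transgenic values were higher, replicate 1 by the most (3.70 ± 0.53, adjusted p = 0.00147; without replicate 1 2.77, adjusted p = 6.42e-05). Slco2b1, an organic anion transporter, measured -3.83, -2.37 and -3.48 against -1.27, -0.25 and 0.46, with 1 of 4 wild-type arrays above background (2.92 ± 0.41, adjusted p = 0.00119; without replicate 1 3.43, adjusted p = 0.000102). Both calls held when any single replicate was left out. Srpk3, a kinase of splicing factors, was at least 4.81-fold higher (adjusted p = 0.00481; at least 8.16-fold without replicate 1, adjusted p = 6.85e-05) and was lost on leaving out any one of wild-type control replicate 3 and transgenic tumour replicate 3 (adjusted p up to 0.0725).

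Beside Socs3 and Il1b, the 15 largest falls held the genes described next and 4 muscle genes given further on. Plxdc2, a transmembrane protein, measured 4.04, 3.77 and 3.70 in wild-type and -2.83, 0.20 and 0.78 in transgenic replicates, replicate 1 the lowest (-4.45 ± 0.63, adjusted p = 0.00127; without replicate 1 -3.26, adjusted p = 3.6e-06). Slc13a3, a dicarboxylate transporter, was above background on all 4 wild-type and 0 of 3 transgenic arrays, and was at least 8.61-fold lower (adjusted p = 4.45e-06; at least 8.49-fold without replicate 1, adjusted p = 1.82e-06). Spint1, an inhibitor of the protease that activates hepatocyte growth factor, was at least 15.8-fold lower (adjusted p = 3.07e-05; at least 15.1-fold without replicate 1, adjusted p = 6.48e-06), and Flrt3, an adhesion protein, at least 10.3-fold lower (adjusted p = 0.000123; at least 8.63-fold, adjusted p = 2.05e-05). Probes of one gene disagreed in size: a second Spint1 probe gave -2.18, and the weakest of 3 Flrt3 probes gave -0.89. Nrg1 (neuregulin 1, a ligand of ERBB receptors) measured 0.82, -0.81 and 1.12 against -3.06, -3.0 and -2.5, with 1 of 3 transgenic arrays above background (-3.43 ± 0.36, adjusted p = 0.000227; without replicate 1 -3.48, adjusted p = 0.000272). Olfml3, a secreted matrix protein, measured 2.25, 2.39 and 2.46 against -1.61, -0.60 and -0.41 (-3.28 ± 0.23, adjusted p = 1.77e-05; without replicate 1 -2.91, adjusted p = 7.43e-07). Pcdhac2, a protocadherin, was at least 6.52-fold lower (adjusted p = 3.02e-05; at least 6.25-fold without replicate 1, adjusted p = 2.46e-05). These 7 calls held when any single replicate was left out. Cxcl3, a chemokine for neutrophils, measured -0.61, -3.65 and -1.13 against -4.94, -5.09 and -4.98, the lowest wild-type value being that of replicate 2, and was at least 3.29-fold lower (adjusted p = 0.00411; at least 3.24-fold without replicate 1, adjusted p = 0.00496). Its call was lost on leaving out wild-type control replicate 3 (adjusted p = 0.0741). Fpr1, the formyl peptide receptor, measured 5.38, 4.59 and 5.51 against 4.15, 0.03 and 0.59, so that replicate 1 was close to wild-type and replicates 2 and 3 were not. Its difference grew from -3.62 ± 0.75, adjusted p = 0.0116 to -5.04, adjusted p = 1.69e-06 without replicate 1, and its call was lost on leaving out wild-type control replicate 3 (adjusted p = 0.136).

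Macrophage identity genes moved in part. Of 35 tested, 7 fell and 2 rose, and 11 fell and 3 rose without replicate 1; the median was -0.13 and -0.16. Cx3cr1, the fractalkine receptor, measured 2.52, 3.38 and 2.77 against 0.69, 0.92 and 1.28 (-1.92 ± 0.33, adjusted p = 0.00438; without replicate 1 -1.81, adjusted p = 0.00757). Itgam (CD11b) measured 3.87, 3.44 and 3.88 against 2.04, 2.42 and 2.72 (-1.38 ± 0.19, adjusted p = 0.00123; without replicate 1 -1.22, adjusted p = 0.00124), though its 3 probes ranged from -1.58 to -0.16. C1qa, a chain of complement C1q, measured 7.04, 7.17 and 7.23 against 5.89, 6.33 and 6.18 (-1.03 ± 0.13, adjusted p = 0.000662; without replicate 1 -0.91, adjusted p = 0.000435). None of these groups overlapped, and the 3 calls held when any single replicate was left out, though Cx3cr1 was lost once slide column 4 was a term (adjusted p = 0.076). With averaged arrays 5 of the 35 fell and 1 rose. At a correlation of 0.9 between repeat arrays 0 of the 35 were called, so all 3 calls were lost. Adgre1 was not called (-0.17 ± 0.12, adjusted p = 0.407; without replicate 1 -0.24, adjusted p = 0.247). Lyz2 had no tested probe. Siglec1 rose in the test (0.88 ± 0.21, adjusted p = 0.0235; without replicate 1 0.52, adjusted p = 0.0103), its other probe gave 0.41, and its call was lost on leaving out any one of wild-type control replicates 1 and 3 and transgenic tumour replicate 3 (adjusted p up to 0.0992).

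Of 23 alternative activation markers 5 fell and 2 rose, and 6 and 5 without replicate 1. Clec10a (the lectin CD301) measured 2.46, 2.71 and 2.34 against 3.63, 3.52 and 4.01, without overlap (1.25 ± 0.16, adjusted p = 0.000743; without replicate 1 1.33, adjusted p = 0.000639). Mmp12, macrophage elastase, measured 4.57, 4.51 and 4.92 against 3.33, 3.26 and 3.20 (-1.46 ± 0.16, adjusted p = 0.000268; without replicate 1 -1.52, adjusted p = 0.000228). Il4ra and Klf4, described above, are also on this list. Mrc1 (-0.48 ± 0.23, adjusted p = 0.223; without replicate 1 -0.11, adjusted p = 0.64) and Chil3 (-0.02 ± 0.40, adjusted p = 0.984; -0.70, adjusted p = 0.113) were not called. Arg1 was not above background on any control array of either genotype. Of 28 scavenger and Toll-like receptors 5 fell and 1 rose, and 10 and 3 without replicate 1. Cd5l, a secreted scavenger protein of macrophages, measured 5.62, 5.83 and 5.26 against 3.77, 3.35 and 3.81 (-1.83 ± 0.24, adjusted p = 0.000713; without replicate 1 -1.83, adjusted p = 0.000848). Msr1 (scavenger receptor A) measured 3.38, 3.27 and 3.17 against 2.42, 2.40 and 1.86 (-1.0 ± 0.15, adjusted p = 0.00152; without replicate 1 -1.06, adjusted p = 0.000695). Stab1, a receptor for modified lipoproteins, rose by 1.02 (adjusted p = 0.00745; without replicate 1 0.92, adjusted p = 0.00838), with overlapping groups. The calls of Clec10a, Mmp12, Cd5l, Msr1 and Stab1 held when any single replicate was left out, and that of Stab1 was lost once slide column 4 was a term (adjusted p = 0.0942). At a correlation of 0.9 between repeat arrays 0 of the 28 scavenger and Toll-like receptors were called, so Cd5l, Msr1 and Stab1 were lost. Marco, a collagen-like scavenger receptor, measured 7.43, 6.84 and 7.48 against 7.01, 4.28 and 3.94, so that replicate 1 alone was within the wild-type range (-2.17 ± 0.56, adjusted p = 0.032; without replicate 1 -3.20, adjusted p = 2.02e-05); its call was lost on leaving out any one of wild-type control replicates 1 and 3, wild-type tumour replicates 1 and 3, transgenic control replicates 2 and 3 and transgenic tumour replicate 3 (adjusted p up to 0.233).

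Some genes of MHC class II presentation and costimulation fell. Replicate 1 was the lowest for Cd74 and H2-Aa, but not for H2-DMa and Cd40. Its median difference from wild-type over the list was -0.715, against -1.03 and -0.753 in replicates 2 and 3. Of 14 tested 5 fell (35.7%, against 5.32% over all genes), 1 rose and 8 were not called, and 9 fell and 1 rose without replicate 1, with medians of -1.29 and -0.91. Cd74, the invariant chain, measured 7.83, 7.72 and 7.92 in wild-type and 3.41, 6.53 and 6.88 in transgenic replicates. Replicate 1 lay about 3 units below replicates 2 and 3, which themselves lay below every wild-type value (-2.29 ± 0.59, adjusted p = 0.0334; without replicate 1 -1.17, adjusted p = 0.000115). H2-Aa showed the same order, 4.99, 4.96 and 4.95 against -0.06, 3.94 and 4.0, and was called only without replicate 1 (-2.39 ± 0.73, adjusted p = 0.0628, then -0.99, adjusted p = 0.000982). The Cd74 call was lost on leaving out any one of wild-type control replicates 1, 2 and 3, wild-type tumour replicates 1 and 3 and transgenic tumour replicate 3 (adjusted p up to 0.144). The peptide loading genes H2-DMa and H2-DMb1 did not follow that order of replicates: H2-DMa measured 3.17, 3.26 and 3.39 against 2.21, 1.59 and 1.95 (-1.37 ± 0.16, adjusted p = 0.000402; without replicate 1 -1.54, adjusted p = 0.000103), and H2-DMb1 fell by 0.82 (adjusted p = 0.00774; without replicate 1 by 0.87, adjusted p = 0.00539). Cd40, a costimulatory receptor of the TNF receptor family, measured 1.18, 1.28 and 1.16 against 0.44, -0.45 and -0.27 (-1.28 ± 0.18, adjusted p = 0.00145; without replicate 1 -1.55, adjusted p = 1.86e-05). H2-DMa, H2-DMb1 and Cd40 kept their calls when any single replicate was left out, while H2-DMb1 was lost once slide column 4 was a term (adjusted p = 0.0767). With normexp background correction 8 of the 14 fell and 0 rose.

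Calls among interferon-stimulated genes depended on replicate 1. Of 48 tested, 1 rose (2.08%, against 3.62% over all genes) and 0 fell with it, and 0 rose and 11 fell without it, when 9.71% of all genes fell. The median over the list was 0.77 in replicate 1, and -0.33 and -0.19 in replicates 2 and 3. The rising gene, Cmpk2, measured 3.22, 3.25 and 3.19 against 4.58, 4.06 and 3.68, with an adjusted p of 0.0427, and of 0.103 without replicate 1.

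Adhesion and matrix genes changed in both directions. Of 25 integrin and adhesion genes 3 fell and 3 rose, and 10 and 2 without replicate 1. Itga1, the collagen-binding integrin alpha 1 chain, was at least 4.6-fold lower (adjusted p = 2.59e-05; at least 4.53-fold without replicate 1, adjusted p = 2.84e-05), while its other probe gave -0.59. Vcam1, the ligand of integrin alpha 4 beta 1, measured -0.36, 0.06 and 0.15 against 1.11, 0.75 and 0.98 (0.95 ± 0.17, adjusted p = 0.00503; without replicate 1 0.82, adjusted p = 0.0102). Of 29 proteases, inhibitors and matrix genes 8 fell and 3 rose, and 13 and 6 without replicate 1. Tgfbi, a secreted matrix protein induced by TGF-beta, measured 7.11, 6.71 and 7.08 against 5.46, 4.23 and 3.57, replicate 1 nearest to wild-type (-2.53 ± 0.29, adjusted p = 0.000363; without replicate 1 -3.04, adjusted p = 2.01e-06). Mmp14, a membrane-bound metalloproteinase, measured 1.0, 0.63 and 0.67 against -0.21, -1.23 and -1.03 (-1.55 ± 0.23, adjusted p = 0.00168; without replicate 1 -1.84, adjusted p = 7.85e-05). Of 17 growth factors 3 fell and 2 rose, and 4 and 5 without replicate 1. Vegfc, of lymphatic growth, was above background on 2 of 4 wild-type arrays and no transgenic one, and was at least 1.89-fold lower (adjusted p = 0.0012; without replicate 1 0.00131). Bmp2 (1.77 ± 0.35, adjusted p = 0.00914; without replicate 1 1.45, adjusted p = 0.0185) and Gdf3 (1.69 ± 0.28, adjusted p = 0.0037; 1.88, adjusted p = 0.00242) rose, and both calls were lost on leaving out wild-type control replicate 3 (adjusted p = 0.11 and 0.0749).

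Iron and redox genes moved as follows. Slc40a1 (ferroportin, the iron exporter) measured 4.50, 4.37 and 4.72 in wild-type and 5.71, 5.90 and 6.02 in transgenic replicates, without overlap (1.28 ± 0.12, adjusted p = 9.66e-05; without replicate 1 1.32, adjusted p = 5.61e-05). Hmox1, which breaks down haem, measured 7.51, 7.48 and 7.68 against 6.64, 6.91 and 6.63 (-0.85 ± 0.11, adjusted p = 0.000911; without replicate 1 -0.81, adjusted p = 0.000944). Of 23 iron and haem genes 3 rose and 3 fell, and 4 and 4 without replicate 1. Of 32 NRF2 and antioxidant genes 6 fell and 1 rose (Gpx3, above), and 13 and 1 without replicate 1. Slc7a11, the cystine transporter, measured 0.45, -0.04 and 0.37 against -1.28, -1.87 and -1.82 (-1.95 ± 0.23, adjusted p = 0.000409; without replicate 1 -2.20, adjusted p = 9.5e-05). Nqo1, a quinone reductase, measured 2.14, 1.29 and 2.49 against 1.28, -1.91 and -1.58, with replicate 1 nearest to wild-type (-2.80 ± 0.62, adjusted p = 0.0169; without replicate 1 -3.95, adjusted p = 1.9e-05), and its call was lost on leaving out any one of wild-type control replicate 3, transgenic control replicate 3 and transgenic tumour replicate 3 (adjusted p up to 0.177).

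Sterol and lipid lists held few calls, and the hypoxia and ATF4 lists held more falls than the 5.32% over all genes. Those falls depended on how repeat arrays were treated. Hypoxia genes called lower numbered 2 with averaged arrays and 1 at a correlation of 0.9, and ATF4 genes 4 and 0. Over all 15833 genes 479 and 110 fell in these fits. Of 26 cholesterol synthesis genes 1 rose and 0 fell, and 3 and 0 without replicate 1; their median was -0.48 in replicate 1 and 0.34 and 0.23 in replicates 2 and 3. Of 30 LXR, PPAR and lipid genes 2 fell and 1 rose, and 3 and 7 without replicate 1. Ppard, a lipid-activated nuclear receptor, measured 4.67, 4.65 and 5.03 against 3.74, 3.75 and 3.91 (-1.05 ± 0.14, adjusted p = 0.000743; without replicate 1 -1.08, adjusted p = 0.000576), and the cholesterol exporter Abca1 measured 5.25, 4.93 and 5.29 against 4.23, 4.49 and 4.11 (-0.90 ± 0.13, adjusted p = 0.00174; without replicate 1 -0.88, adjusted p = 0.00211). Of 38 hypoxia and glycolysis genes 5 fell (13.2%) and 0 rose, and 12 and 0 without replicate 1. Egln3, an oxygen-sensing prolyl hydroxylase, measured -1.0, -1.29 and -0.74 against -2.52, -2.77 and -2.34, with 1 of 3 transgenic arrays above background (-1.61 ± 0.17, adjusted p = 0.000227; without replicate 1 -1.70, adjusted p = 0.000114). Slc2a1, the glucose transporter GLUT1, fell by 0.94 (adjusted p = 0.00325; without replicate 1 by 0.78, adjusted p = 0.00399). P4ha1 was called only with replicate 1 (adjusted p = 0.0348, and 0.0746 without it). Of 30 ATF4 and ER stress genes 6 fell (20%) and 0 rose, and 9 and 1 without replicate 1. Phgdh, of serine synthesis, measured 4.11, 3.92 and 4.18 against 2.61, 2.70 and 2.91 (-1.36 ± 0.16, adjusted p = 0.000418; without replicate 1 -1.31, adjusted p = 0.000396), and Chac1, which degrades glutathione, measured 2.82, 2.89 and 3.13 against 1.77, 1.97 and 1.97 (-1.10 ± 0.12, adjusted p = 0.000262; without replicate 1 -1.07, adjusted p = 0.000198). The calls of Ppard, Abca1, Egln3, Slc2a1, Phgdh and Chac1 held when any single replicate was left out. At a correlation of 0.9 between repeat arrays, those of Ppard, Abca1, Phgdh and Chac1 were lost.

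Markers of other cells were examined beside these lists. Mpo, Elane and Ctsg, whose products are stored in azurophil granules and which are made in promyelocytes, rose. Mpo (myeloperoxidase) measured 1.82, 2.56 and 1.92 against 5.87, 3.89 and 4.23 (2.63 ± 0.37, adjusted p = 0.00138; without replicate 1 2.02, adjusted p = 0.000104), Elane (neutrophil elastase) 1.71, 2.09 and 2.19 against 4.77, 3.35 and 3.20 (1.74 ± 0.32, adjusted p = 0.00629; 1.17, adjusted p = 0.000568), and Ctsg (cathepsin G) 0.35, 1.01 and 0.64 against 3.74, 2.23 and 2.20 (2.10 ± 0.33, adjusted p = 0.00244; 1.58, adjusted p = 0.00103). Replicate 1 was the highest in all 3, no groups overlapped, and the calls held when any single replicate was left out. That of Elane was lost once slide column 4 was a term (adjusted p = 0.0703). Genes of later granules went another way: Ltf (lactoferrin) measured 5.23, 4.64 and 5.22 against 6.19, 2.54 and 3.57 and Ngp 2.49, 1.87 and 2.13 against 4.21, 1.34 and 1.21, so that replicate 1 was above and replicates 2 and 3 below wild-type. Both were called lower only without replicate 1 (Ltf -0.96 ± 0.66, adjusted p = 0.402, then -2.13, adjusted p = 0.0017; Ngp 0.15 ± 0.53, adjusted p = 0.9, then -0.85, adjusted p = 0.00334). Of the 29 neutrophil and granule genes 5 rose and 1 fell, and 4 rose and 9 fell without replicate 1. The part of such cells in the other lists was not tested.

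Of 19 myeloid progenitor genes 1 rose and 3 fell, and 4 and 4 without replicate 1. Ly6a (Sca-1, a surface protein of stem cells and of interferon-exposed cells) measured 4.75, 4.26 and 4.66 against 2.61, 0.71 and 1.31 (-3.02 ± 0.34, adjusted p = 0.000293; without replicate 1 -3.59, adjusted p = 1.82e-06). Sox4, a transcription factor of progenitors, measured -1.94, -0.65 and -0.93 against -0.38, 2.77 and 2.70, with replicate 1 nearest to wild-type (2.79 ± 0.62, adjusted p = 0.0175; without replicate 1 3.86, adjusted p = 1.34e-05), and its call was lost on leaving out any one of wild-type control replicates 1 and 3, transgenic control replicates 2 and 3 and transgenic tumour replicate 3 (adjusted p up to 0.119). Eya1 fell by 1.01 (adjusted p = 0.00391; without replicate 1 by 1.06, adjusted p = 0.00266). Calls among the remaining markers were as follows: of 7 dendritic cell genes 1 fell (Il4i1, -1.30 ± 0.19, adjusted p = 0.00168; without replicate 1 -1.29, adjusted p = 0.00227), of 8 erythroid and megakaryocyte genes 2 fell (Hba-a2 -1.46 ± 0.18, adjusted p = 0.000466; -1.43, adjusted p = 0.000503, and Pf4 -0.81 ± 0.16, adjusted p = 0.0108; -0.97, adjusted p = 0.00154), of 6 T and NK cell genes 2 rose and 1 fell, of 4 B cell genes 1 rose, and of 5 mast cell and 11 osteoclast genes 0 were called. Without replicate 1 these counts were 2 falling dendritic cell genes, 2 falling and 1 rising erythroid and megakaryocyte genes, 2 rising and 1 falling T and NK cell genes, 1 rising B cell gene, 1 rising mast cell gene and 2 falling osteoclast genes.

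Most of the skeletal muscle transcripts tested were lower in transgenic cells. This group was put together after the values were seen, so it is described with no test of its own. Of 40 muscle genes 20 were tested, 19 had a negative difference and 14 were called lower, with a median of -2.26. Members dim in transgenic cells could pass the filter only through a group where they were high. The lean to negative differences is thus partly built in. Without replicate 1, 13 of the 14 were still called and the median was -2.09. Myh3, embryonic myosin heavy chain, measured 0.91, 1.13 and 1.09 in wild-type and -2.51, -2.40 and -1.31 in transgenic replicates, with 1 of 3 transgenic arrays above background (-3.19 ± 0.35, adjusted p = 0.000268; without replicate 1 -3.08, adjusted p = 0.000439). Actc1, cardiac alpha actin, which is also made in developing skeletal muscle, measured 0.94, 1.53 and 1.13 against -2.87, -2.27 and -0.28 (-3.07 ± 0.49, adjusted p = 0.00268; without replicate 1 -2.62, adjusted p = 0.00422). Itga7, the laminin receptor of muscle fibres, and Myom2 were at least 3.92-fold and 4.04-fold lower (adjusted p = 1.77e-05 and 0.00216; without replicate 1 at least 3.87-fold and 3.99-fold, adjusted p = 1.65e-05 and 0.00187). These 4 calls held when any single replicate was left out. With tumour material 14 of the 20 were also called lower, though the share of all genes called there is not given here. Among 10 fibroblast and endothelial markers 2 fell and 0 rose, and 6 and 0 without replicate 1. Col3a1, a fibrillar collagen, measured 1.22, -3.20 and 1.48 against -5.10, -4.57 and -1.57, so the groups overlapped (-4.09 ± 1.03, adjusted p = 0.0303; without replicate 1 -3.80, adjusted p = 0.0485), and its call was lost on leaving out any one of wild-type control replicates 1 and 3, wild-type tumour replicate 1, transgenic control replicate 2 and transgenic tumour replicate 3 (adjusted p up to 0.201).

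**Figure D5:**
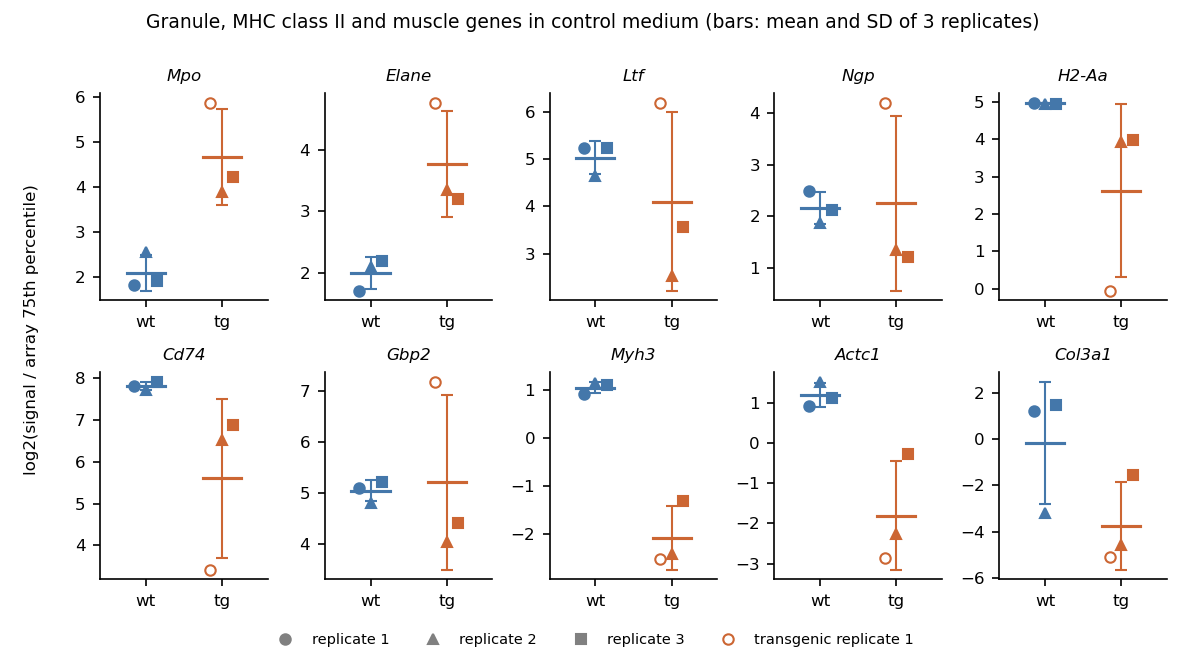
Levels on the y axis, log2 signal over the array's 75th percentile, for 10 genes of granules, MHC class II, interferon response, muscle and collagen in wild-type (wt) and transgenic (tg) control replicates; each symbol is 1 replicate and bars show the mean and SD of 3. Transgenic replicate 1 (open circle) is highest for Mpo, Elane, Ltf and Ngp and lowest for H2-Aa and Cd74, while Myh3 and Actc1 are lower in all 3 transgenic replicates.

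The genes with the widest gap between transgenic replicate 1 and the mean of replicates 2 and 3 show what that replicate does to this comparison. The chemokine gene Ccl7 measured 1.20, 0.30 and 1.08 in wild-type and -4.0, 3.54 and 3.14 in transgenic replicates: replicate 1 lay far below wild-type and replicates 2 and 3 above it (-0.10 ± 1.35, adjusted p = 0.974; without replicate 1 2.45, adjusted p = 0.000241). Rab15, a vesicle GTPase, showed the same pattern at -0.67, -1.06 and -0.55 against -4.62, 2.79 and 2.5 (0.83 ± 1.30, adjusted p = 0.741; without replicate 1 3.32, adjusted p = 6.69e-06). In the other direction Cfb, complement factor B, measured 5.46, 5.05 and 5.25 against 7.85, 2.31 and 2.43 (-0.98 ± 0.97, adjusted p = 0.579; without replicate 1 -2.87, adjusted p = 7.43e-07), and Ly6i measured 2.75, 2.19 and 2.87 against 3.75, -2.16 and -1.72 (-2.64 ± 1.03, adjusted p = 0.137; without replicate 1 -4.67, adjusted p = 7.43e-07). The uncharacterised C77080 (-1.74 ± 1.37, adjusted p = 0.467; 0.95, adjusted p = 0.00308) and the protease gene Adamts1 (-1.03 ± 0.94, adjusted p = 0.538; 0.75, adjusted p = 0.0439) turned sign without replicate 1, as Ccl7 did. Nrcam, Bex1 and Ly6f were also among the 10 widest gaps. Nrcam was called higher and Ly6f lower only without replicate 1 (adjusted p = 1.02e-05 and 4.53e-05), and Bex1 was not called either way.

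The same transgene contrast with tumour material shares no samples with this one, and the difference between both was tested in the same fit. It was called for 306 genes (1.93%), 176 of which were among the 1416. Of the 1416 genes, 227 were also called in the same direction with tumour material and 29 in the opposite direction. How many of all genes were called with tumour material is not given here, so no share stands beside these counts. Without replicate 1 the difference was called for 1208 genes.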

How the data were processed

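Per the labels' protocols, RNA was purified on columns and labelled with Cy3 for one-colour Agilent arrays. Per the submitters' processing notes, Agilent Feature Extraction 10.7.3.1 read the scans. The deposited scanner intensities are, per the file headers, background-subtracted and spatially detrended. The authors' deposited series matrix holds log2 values and served as an alternative. Its gene filters are not given in the sources used here.

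Control and uneven spots were left out, spots of a probe averaged, and each array's log2 75th percentile subtracted. The filter kept 20207 probes that every array of some group detected well above background, and the brightest stood for its gene. limma 3.58.1 (R 4.3.3) fitted 4 group means and the slide, treating repeat arrays as a random block (correlation 0.061), over 11 replicates on 14 arrays. Transgenic tumour replicate 1 is not analysed here. Arrays give no counting error, so their number limits the precision.

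The comparison, the 37 gene lists and the genes to name were chosen with earlier results of these data known. Named were the 15 largest rises and falls without overlap, up to 5 called members of a list, a set of regulators and markers, and the genes most changed by transgenic replicate 1; others are said to be chosen later. Some genes that this rule names are not described. Alternatives covered scaling, filters, slide, repeat arrays and each replicate left out. The fit was also run on simulated arrays with independent noise. Such arrays cannot test how the calls depend on the correlation of repeat arrays.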

Additional observations from a re-analysis of the deposited data

Results flagged for a closer look

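For 32 genes named above, the transgene's effect in plain medium differed from its effect with tumour material by the interaction term of the same limma fit (adjusted p under 0.05 over all genes). Each value below is the effect in plain medium minus the effect with tumour material, in log2 units. All 32 differences were also called without transgenic control replicate 1. Many of these genes were named for a large rise or fall in plain medium. The sign of their difference therefore leans towards that effect and is no separate result about a class of genes.

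Over the whole lists the difference between media was called for 17 of 56 mitosis and 5 of 52 DNA replication genes, against 1.93% of all genes. The cell division genes named here gave positive differences: Ccna2 3.07 (its effect with tumour material was 0.01), Mki67 1.73, Ccnb2 3.14, Rrm2 2.06, Aunip 4.0, Pbk 4.87, Ska1 3.50, Sapcd2 4.73 and Dtl 2.55, and the repair gene Ung gave -0.69. Aunip, Pbk, Ska1, Sapcd2 and Dtl were not well above background on any wild-type control array, so their values are fitted ones and no measure of size. The transporter Slco2b1 gave 2.92.

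The signalling and inflammatory genes below, mostly named for a fall in plain medium, gave negative differences. They were -3.62 for Socs3 (effect with tumour material -1.10), -3.94 for Il1b (-0.67), -0.94 for Csf2rb, -2.57 for Nrg1, -2.90 for Flrt3 and -3.99 for Spint1, the last pair dim on all transgenic control arrays. Il10 was the exception at 2.82: it was not called in plain medium, and its effect with tumour material was -3.28. Arg1 gave 5.72, being dim on all control arrays and having an effect of -5.66 with tumour material.

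Among matrix, presentation and surface genes the differences were -1.72 for Olfml3, -1.79 for Mmp12, -1.73 for Mmp14, -2.63 for Tgfbi, -3.19 for Ly6a, -1.0 for Msr1, -1.35 for Cd40, -2.04 for H2-DMa and -1.65 for H2-DMb1. H2-DMb1 was higher in transgenic cells with tumour material (0.83), as were the ATF4 targets Phgdh (1.47) and Chac1 (0.81), whose differences were -2.83 and -1.91. Mitf gave -0.76. The muscle gene Myh3 gave 2.44, being lower in both media.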

How the results depend on the processing

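The counts of 573 rising and 843 falling genes moved most with the replicates and arrays used. Leaving out single replicates gave 143 to 1180 rising and 277 to 1538 falling genes, the lowest without wild-type control replicate 3 (143 and 277) and the highest without transgenic control replicate 1. Without wild-type control replicate 1 they were 339 and 567, and without transgenic tumour replicate 3 they were 293 and 499. Control-medium arrays alone gave 160 and 290, with fewer samples for the spread, and arrays averaged per replicate with no slide term 286 and 479. A term for slide column 4 gave 281 and 350. Slide 2 alone gave 0 and 0 in limma, with 2116 genes at an unadjusted p under 0.05. Normexp background correction gave 993 and 835, and no filter on dim probes 353 and 563 over more genes. Chosen after seeing the data, a correlation of 0.9 between repeat arrays gave 65 and 110, and quantile normalization without transgenic control replicate 1 gave 1237 and 1476.

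Of 109 named genes that were called, 105 kept the call without transgenic control replicate 1, 72 without wild-type control replicate 3, 81 once slide column 4 was a term, 75 with control-medium arrays only and 94 with normexp correction, where Mcoln1 turned to 0.036 (not called). With averaged arrays 88 kept it, at a correlation of 0.9 47, and on slide 2 alone 0. The cause of these losses was not tested. Ngp was reversed and called without transgenic control replicate 1, at -0.85, and at -0.89 with quantile normalization or averaged arrays as well. Without that replicate C77080 was 0.95 (0.96 with quantile normalization, 0.94 with control-medium arrays only, 0.80 with averaged arrays), and Ccl7 was 2.45 (2.49, 2.48 and 2.48 in the same order). Adamts1 was then 0.75 (0.75 with quantile normalization, 0.86 with averaged arrays), and Lamp1 was called at 0.35 with quantile normalization (adjusted p = 0.0446). Over all single replicates left out, C77080 ran from -3.26 to 0.95, Ccl7 from -1.76 to 2.45, Adamts1 from -2.26 to 0.75 and Ngp from -0.85 to 0.75. Without the arrays of slide column 4, C77080 was 1.02 and Ccl7 2.51.

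With the replicate block as a term, 446 genes rose and 683 fell, and 105 of the 109 kept their calls. Deviations from the group means of wild-type and transgenic control replicates with the same number correlated at 0.062, 0.142 and -0.009. Replicates of different numbers gave -0.100 to 0.051. With 3 replicates in a group, such values cannot decide whether replicates of the same number were prepared together.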
